A study of Fagopyrum tataricum with 12 samples.

Results

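Proline synthesis and breakdown were followed through 2 genes of the 26750 in the deposited table, the genes whose description named pyrroline-5-carboxylate reductase (1 gene) or proline dehydrogenase (1 gene). The other search text, delta-1-pyrroline-5-carboxylate, matched 0 descriptions. The dehydrogenase gene is POX1 (evm.TU.Ft5.2663, chromosome 5 by its identifier, implied length 1473 bases), described as mitochondrial. The reductase gene has no deposited symbol (evm.TU.Ft8.534, chromosome 8, implied length 855 bases). Both lengths were worked out from the deposited counts and FPKM. Both genes were deposited under the pathway arginine and proline metabolism. A pair of further genes with the symbol P5CS, the usual name of the enzyme that makes pyrroline-5-carboxylate, carried another description and so are not members; they are given below as neighbours in the pathway.

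RNA was sequenced from leaf and stem of Tartary buckwheat (Fagopyrum tataricum), cultivar Dingku1, described by the submitters as relatively drought resistant. Hydroponic seedlings at the 2-leaf stage stood for 2, 4 or 8 h in 20% PEG-6000, an osmoticum that makes water harder for roots to take up, and the control at 0 h stood in Hoagland's nutrient. There were 12 libraries, 3 for each of the 4 groups. All groups share the cultivar and tissue. The later times have no untreated seedlings of their own, so the effect of PEG and that of the hour of day cannot be told apart.

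Proline is a compatible solute that many plants accumulate when water is short. In plants it is made mainly from glutamate: delta-1-pyrroline-5-carboxylate synthase (P5CS) makes pyrroline-5-carboxylate (P5C), and P5C reductase turns that into proline; ornithine aminotransferase offers a second source of P5C. In mitochondria, proline dehydrogenase oxidises proline back to P5C, and P5C dehydrogenase completes the return to glutamate. In Arabidopsis, P5CS transcripts are known to increase under osmotic stress, and proline dehydrogenase transcripts are known to be repressed by water deficit and induced on rewatering or by proline itself.

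Counted reads per library ranged from 30468104 to 37395814. Of the 26750 genes, 22063 passed the low-count filter and were tested, both members among them. The replicates varied little (common biological coefficient of variation 4.90%), and between 53.2% and 72.8% of tested genes were called in any 1 comparison, so a call alone separates no gene from the rest. The labels do not say whether replicates came from separate plants, and the p-values measure only the spread between these libraries. Levels are CPM, the reads of a gene scaled to library size and composition by TMM, and a called gene has a Benjamini-Hochberg adjusted p below 0.05 in edgeR's quasi-likelihood fit of all 12 libraries. The labelled tissue was checked by its markers: all 22 leaf genes had 1 CPM or more in every group, as did 3 of 4 stem xylem genes at 0, 2 and 4 h and all 4 at 8 h, and 1 of 9 root genes.

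The reductase gene was higher at every time in PEG and its level was higher at each later time. POX1 was also higher at 2 and 4 h, with larger fitted changes than the reductase gene (the difference between the genes was not tested), and was below its control level at 8 h. Both genes thus stood above the control at 2 and 4 h, and at 8 h they stood on opposite sides of it.

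**Figure D1:**
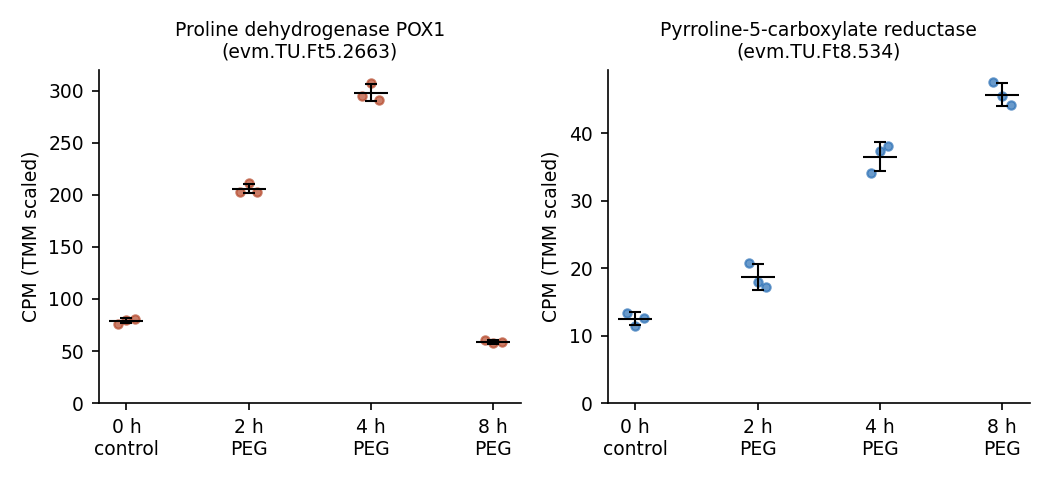
Level of POX1 (left) and of the P5C reductase gene (right) in each library, in TMM-scaled CPM, at 0 h (control) and after 2, 4 and 8 h in PEG (evenly spaced categories); points are libraries and bars are mean and SD (n = 3). POX1 averaged 79.0, 206, 298 and 58.8 CPM at the 4 times, and the reductase gene averaged 12.5, 18.7, 36.5 and 45.7 CPM.

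POX1 encodes the enzyme of the first step of proline breakdown. Its 3 libraries had 76.4, 79.7 and 80.8 CPM at 0 h, 203, 211 and 203 CPM at 2 h, 295, 307 and 291 CPM at 4 h, and 60.6, 57.5 and 58.3 CPM at 8 h. Every 2 h and 4 h library lay above every control library, every 4 h library lay above every 2 h library, and every 8 h library lay below all the others. The group means were 79.0 ± 2.30, 206 ± 4.72, 298 ± 8.44 and 58.8 ± 1.62 CPM at 0, 2, 4 and 8 h (SD, n = 3 each). These levels rest on between 1913 and 10383 counted reads per library.

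Against the control, POX1 was 2.61-fold higher at 2 h (log2 1.38 ± 0.0392, SE, edgeR adjusted p = 3.81e-28) and 3.77-fold higher at 4 h (log2 1.92 ± 0.0393, adjusted p = 3.27e-33). At 8 h it was 0.745 of the control level (log2 -0.42 ± 0.0411, adjusted p = 7.96e-12). Among the tested genes, 7.01% had a larger log2 change at 2 h and 6.28% had a larger one at 4 h. At 8 h, 27.5% of tested genes had a lower log2 change than POX1. Between PEG times, POX1 was 1.45-fold higher at 4 h than at 2 h (log2 0.53 ± 0.0372, adjusted p = 2.46e-15). At 8 h it stood at 0.197 of its 4 h level (log2 -2.34 ± 0.0404, adjusted p = 2.64e-35), a drop exceeded by 3.02% of tested genes, 667 in number.

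The reductase gene encodes the last step of proline synthesis. It had 13.4, 11.5 and 12.6 CPM at 0 h, 20.8, 18.0 and 17.2 CPM at 2 h, 34.1, 37.3 and 38.1 CPM at 4 h, and 47.5, 45.5 and 44.2 CPM at 8 h. No library of a later time overlapped with any library of an earlier one. The group means were 12.5 ± 0.937, 18.7 ± 1.90, 36.5 ± 2.12 and 45.7 ± 1.69 CPM at 0, 2, 4 and 8 h (SD, n = 3 each), from between 424 and 1827 counted reads per library.

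Its fold over the control was 1.5 at 2 h (log2 0.58 ± 0.0758, SE, edgeR adjusted p = 1.55e-08), 2.92 at 4 h (log2 1.55 ± 0.0721, adjusted p = 2.21e-21) and 3.66 at 8 h (log2 1.87 ± 0.0709, adjusted p = 2.27e-24). The share of tested genes with a larger log2 change was 17.5% at 2 h, 8.30% at 4 h and 5.05% at 8 h. Of the 3 steps between neighbouring times, the one between 2 and 4 h was the largest, and the gene was 1.95-fold higher at 4 h (log2 0.97 ± 0.0690, adjusted p = 5.10e-15). At 8 h against 4 h the fold was smaller, at 1.25 (log2 0.33 ± 0.0642, adjusted p = 3.04e-05), and 29.7% of tested genes had a larger change over that interval.

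Both members were called in each of the 6 pairwise comparisons. Over all tested genes the share called was 63.2% at 2 h, 72.8% at 4 h and 70.9% at 8 h against 0 h, 53.2% at 4 h against 2 h, 65.5% at 8 h against 4 h and 63.3% at 8 h against 2 h. The groups of libraries did not overlap for either member in any of the 6 comparisons, as for 65.9%, 74.4% and 72.8% of tested genes at 2, 4 and 8 h against 0 h, 58.1% at 4 h against 2 h, 68.6% at 8 h against 4 h and 66.5% at 8 h against 2 h. The calls of all genes at 8 h were 8036 higher and 7605 lower; with scaling by library totals alone they were 10206 higher and 6124 lower. With a minimum of 2-fold, 1 member was called at 2 h (POX1), both at 4 h and 1 at 8 h (the reductase gene), against 18.6%, 27.1% and 27.0% of all tested genes. The median log2 change of the members was 0.98, 1.73 and 0.72 at 2, 4 and 8 h, beside 0.00, -0.04 and 0.03 over all tested genes. With 2 members the median is only their midpoint. At 8 h POX1 lay at -0.42 and the reductase gene at 1.87, so neither changed by 0.72. In bulk tissue, fewer cells of a type and less RNA per cell cannot be told apart, and this holds for every level given here.

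**Figure D2:**
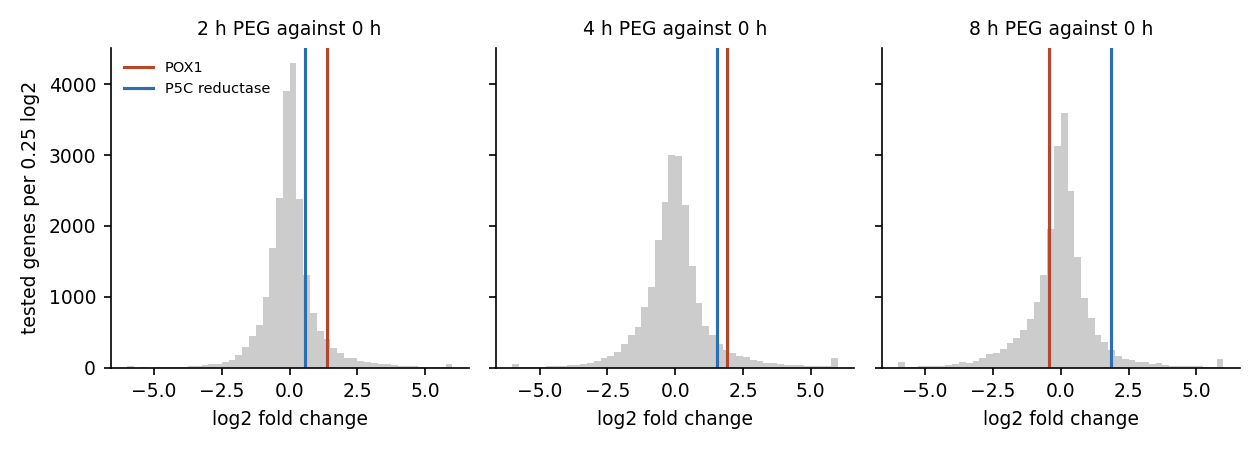
Distribution of the log2 fold change over the 22063 tested genes at 2, 4 and 8 h in PEG against 0 h, in bins of 0.25, with changes beyond 6 either way gathered in the end bins; vertical lines mark POX1 and the P5C reductase gene. POX1 lies at 1.38 and 1.92 in the first panels and at -0.42 in the last, and the reductase gene lies at 0.58, 1.55 and 1.87.

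The courses of the members over time were set beside those of all genes. The course of POX1, called higher at 2 and 4 h and lower at 8 h against 0 h, was followed by 2.50% of tested genes, 552 in all, and by 0.585% (129 genes) when the rises at 2 and 4 h had also to reach 2-fold. The course of the reductase gene, called higher at every time and at each step between neighbouring times, was followed by 2.88% of tested genes, 636 in all. A single test of any difference between the 4 times called 88.7% of tested genes, and 310 of them had a smaller p than POX1 (adjusted p = 4.12e-37) while 2274 had a smaller p than the reductase gene (adjusted p = 6.69e-25).

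Levels of the members were compared with each other per length, as deposited FPKM. POX1 averaged 52.6, 139, 189.6 and 43.5 FPKM at 0, 2, 4 and 8 h, and the reductase gene 14.3, 21.7, 40.0 and 58.3 FPKM. POX1 was thus the more abundant transcript at 0, 2 and 4 h, and the reductase at 8 h. In FPKM, POX1 stood above 83.9%, 93.7%, 95.9% and 79.2% of tested genes at the 4 times, and the reductase gene above 55.5%, 65.0%, 78.8% and 84.1%.

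The ratio of reductase to dehydrogenase FPKM was 0.302, 0.249 and 0.268 in the control libraries, 0.177, 0.147 and 0.146 at 2 h, 0.199, 0.209 and 0.225 at 4 h, and 1.35, 1.36 and 1.31 at 8 h. Every 2 h and 4 h library lay below every control library, and every 8 h library lay above 1. The group means were 0.273 ± 0.0268, 0.157 ± 0.0174, 0.211 ± 0.0132 and 1.34 ± 0.0289 (SD, n = 3 each). These are ratios of transcript levels within a library and carry no test; enzyme activity, proline and P5C were not measured here.

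**Figure D3:**
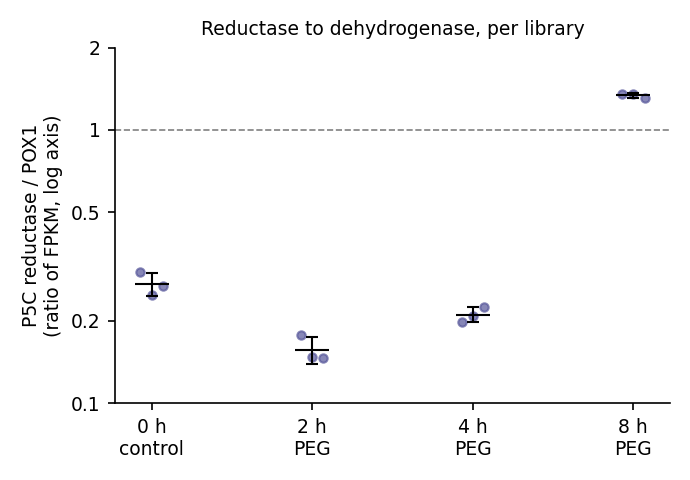
Ratio of the FPKM of the P5C reductase gene to that of POX1 in each library on a log axis, at 0 h (control) and after 2, 4 and 8 h in PEG; bars are mean and SD (n = 3), and the dashed line marks equal FPKM. The ratio averaged 0.273, 0.157, 0.211 and 1.34 at the 4 times.

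The genes with the symbol P5CS stand 1 step before the reductase. P5CS carries both the kinase and the reductase activity that turn glutamate into P5C, and is generally regarded as the rate-limiting enzyme of proline synthesis. Both genes were deposited with the description gamma-glutamyl phosphate reductase and were added after the files had been seen. How alike their sequences are was not tested, so it is not known whether counting kept their reads apart, and the level of either is uncertain.

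The 2 P5CS genes moved in opposite directions. Evm.TU.Ft6.2920 averaged 12.6 ± 0.992, 29.6 ± 0.818, 38.3 ± 0.526 and 42.4 ± 1.47 CPM at 0, 2, 4 and 8 h (SD, n = 3 each), with log2 changes against 0 h of 1.23, 1.61 and 1.75 (edgeR adjusted p = 1.56e-19, 1.14e-23 and 4.19e-25). Evm.TU.Ft1.992 averaged 60.9 ± 1.43, 53.4 ± 0.976, 38.2 ± 0.222 and 32.5 ± 0.781 CPM, with log2 changes of -0.19, -0.67 and -0.91 (adjusted p = 0.000553, 1.36e-15 and 1.62e-19). All PEG libraries lay above all controls for the first gene and below all controls for the second. Their directions against 0 h were the same under every scaling tried, but their differences between 4 and 8 h were not stable. For evm.TU.Ft6.2920 the log2 difference of 0.15 (adjusted p = 0.0234) was no longer called with DESeq2 size factors (0.12), or without replicate 1 (0.14) or replicate 2 (0.14) of 4 h or replicate 2 (0.14) or replicate 3 (0.13) of 8 h. For evm.TU.Ft1.992 the difference of -0.23 (adjusted p = 9.84e-05) was -0.02 and not called with scaling by library totals alone.

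Summed over the 2 P5CS genes, the level stayed within a narrower range than for either gene. The sum averaged 33.3 ± 0.900, 38.1 ± 0.768, 33.1 ± 0.412 and 37.7 ± 1.43 FPKM at 0, 2, 4 and 8 h (SD, n = 3 each). On the CPM scale the sum averaged 73.5 ± 2.38, 83.0 ± 1.78, 76.5 ± 0.749 and 74.9 ± 2.21. The scales differ at 8 h, where the sum was above the 4 h and control means in FPKM, while in CPM it was below the 4 h mean and within 1 SD of the control mean. Of the summed FPKM, evm.TU.Ft6.2920 gave 17.1%, 35.6%, 50% and 56.6% at the 4 times. Counting P5CS and reductase together as synthesis genes, their FPKM over that of POX1 was 0.906 ± 0.0435, 0.431 ± 0.0212, 0.386 ± 0.0173 and 2.21 ± 0.0480 at the 4 times, below the control ratio at 2 and 4 h and above it at 8 h, as for the reductase alone.

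**Figure D4:**
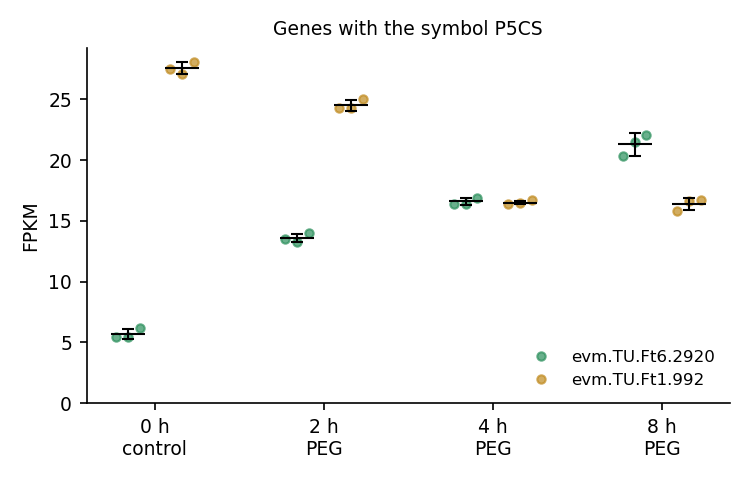
Deposited FPKM of the genes with the symbol P5CS in each library at 0 h (control) and after 2, 4 and 8 h in PEG; bars are mean and SD (n = 3). Evm.TU.Ft6.2920 averaged 5.70, 13.6, 16.6 and 21.3 FPKM, and evm.TU.Ft1.992 averaged 27.6, 24.5, 16.5 and 16.4 FPKM, so that they met at 4 h.

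The remaining genes around the proline cycle were taken as lists. The background for their counts was 31.6% of all genes called higher and 31.7% called lower at 2 h, 35.1% and 37.7% at 4 h, and 36.4% and 34.5% at 8 h, each against 0 h.

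Ornithine is the other precursor of P5C. Of 15 tested genes described with ornithine or arginine synthesis or use, 5 were higher and 7 lower at 2 h, 4 higher and 10 lower at 4 h, and 5 higher and 8 lower at 8 h, with median log2 changes of -0.27, -0.50 and -0.20. DELTA-OAT (evm.TU.Ft8.2707), ornithine aminotransferase, averaged 71.3 ± 2.56, 183 ± 2.48, 262 ± 6.89 and 167 ± 1.30 CPM at 0, 2, 4 and 8 h (SD, n = 3 each) and was higher at each PEG time (log2 1.36, 1.88 and 1.23, edgeR adjusted p = 3.81e-28, 3.89e-33 and 4.47e-27). Its changes at 2 and 4 h were close in size to those of POX1, 1.38 and 1.92, but at 8 h it was above its control level and POX1 below. The second DELTA-OAT gene (evm.TU.Ft3.1005), named after its values were seen, averaged 13.6, 17.6, 32.3 and 14.9 CPM and was called higher at 2 and 4 h. A gene for argininosuccinate synthase (evm.TU.Ft2.4010), which acts on the way from ornithine to arginine, averaged 112, 49.7, 27.3 and 22.1 CPM and was lower at each PEG time. A second gene of that description (evm.TU.Ft5.621), named after its values were seen, averaged 18.1, 24.9, 13.3 and 20.9 CPM. It was higher at 2 and 8 h and lower at 4 h.

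Glutamate is the start and the end of the proline cycle. The next list held 13 tested genes described as glutamine synthetase, glutamate synthase or glutamate dehydrogenase. The direction in which these enzymes acted was not measured. Of the 13 genes, 4 were higher and 5 lower at 2 h, 5 higher and 5 lower at 4 h, and 4 higher and 6 lower at 8 h. GDH1 (evm.TU.Ft7.4034), glutamate dehydrogenase, averaged 72.1 ± 3.90, 348 ± 12.3, 1095 ± 13.4 and 306 ± 9.49 CPM at 0, 2, 4 and 8 h (SD, n = 3 each), with log2 changes against 0 h of 2.27, 3.92 and 2.09. Like POX1, this GDH1 gene had its highest level at 4 h. Further GDH1 genes, named after their values were seen, differed from it. Evm.TU.Ft8.2486 averaged 5.67, 12.1, 19.7 and 36.4 CPM and was higher at each PEG time, with its highest level at 8 h. Evm.TU.Ft8.2484 averaged 1.44, 3.22, 1.86 and 1.63 CPM and was called higher at 2 h only. The gene for the chloroplast glutamine synthetase of leaves (evm.TU.Ft8.4545) averaged 1076, 646, 354 and 127 CPM and was lower at each PEG time.

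Glutamate decarboxylase draws glutamate into gamma-aminobutyrate (GABA). Of 8 tested genes of that branch, 3 were higher and 5 lower at 2 h, 3 higher and 2 lower at 4 h, and 5 higher and 1 lower at 8 h. A glutamate decarboxylase gene (evm.TU.Ft2.6385) averaged 314, 667, 761 and 1165 CPM at 0, 2, 4 and 8 h and, like the reductase gene, was higher at each later time. ALDH5F1 (evm.TU.Ft5.3036), succinate-semialdehyde dehydrogenase, which completes GABA breakdown, averaged 1602, 734, 741 and 298 CPM and was lower at each PEG time. Further ALDH5F1 genes, named after their values were seen, differed from it. Evm.TU.Ft3.3392 averaged 29.1, 22.7, 23.1 and 35.2 CPM, lower at 2 and 4 h and higher at 8 h. Evm.TU.Ft2.1384 averaged 60.0, 55.0, 61.3 and 64.2 CPM and was called lower at 2 h only.

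Polyamines, like proline, can be made from ornithine or arginine. Of 18 tested polyamine genes, 5 were higher and 6 lower at 2 h, 8 higher and 7 lower at 4 h, and 7 higher and 10 lower at 8 h. PAO5 (evm.TU.Ft6.498), a polyamine oxidase, averaged 49.0, 14.6, 15.3 and 15.6 CPM and was lower at each PEG time. The other tested polyamine oxidase genes, named after their values were seen, differed in direction. PAO2 (evm.TU.Ft7.607) at 24.5, 73.5, 72.1 and 54.6 CPM and PAO3 (evm.TU.Ft6.213) at 21.5, 52.4, 63.6 and 51.9 CPM were higher at each PEG time. So was PAO1 (evm.TU.Ft5.2536), at a low level. PAO4 (evm.TU.Ft3.4295) averaged 81.7, 67.1, 84.1 and 72.7 CPM and was lower at 2 and 8 h. A second PAO1 gene (evm.TU.Ft2.6292) was called higher at 4 and 8 h only, and a second PAO2 gene (evm.TU.Ft7.249) at 2 and 4 h only. SAMDC2 (evm.TU.Ft1.2798), S-adenosylmethionine decarboxylase, averaged 336, 342, 309 and 139.6 CPM, with no call at 2 h and a log2 change of -1.27 at 8 h. Further SAMDC2 genes, named after their values were seen, differed from it. Evm.TU.Ft1.409 averaged 2265, 2339, 2362 and 1456 CPM and was called lower at 8 h only (log2 -0.64). Evm.TU.Ft4.1118 averaged 1.07, 2.69, 1.92 and 0.634 CPM, higher at 2 and 4 h and lower at 8 h.

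Proline also moves between cells and in and out of protein. Of 12 tested proline and amino acid transporter genes, 5 were higher and 3 lower at 2 h, 5 higher and 5 lower at 4 h, and 4 higher and 6 lower at 8 h. LHT2 (evm.TU.Ft4.4657), of the lysine and histidine transporter family, averaged 1.65, 30, 79.9 and 3.12 CPM, with its highest level at 4 h as for POX1. LHT1 (evm.TU.Ft3.390) averaged 67.0, 59.5, 25.4 and 9.40 CPM; its small change at 2 h (log2 -0.17) was not called without replicate 3 of 0 h (log2 -0.13).

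The 3 tested PROT1 genes, described as proline transporter 1 and named after their values were seen, did not move together; 1 further PROT1 gene did not pass the low-count filter. Evm.TU.Ft1.1041 averaged 37.7, 48.6, 92.8 and 72.8 CPM and was higher at each PEG time, and evm.TU.Ft2.3949 averaged 37.9, 25.9, 27.8 and 26.2 CPM and was lower at each. Evm.TU.Ft6.2601 averaged 12.4, 13.2, 14.9 and 14.9 CPM and was called higher at 4 and 8 h only. Of 16 tested genes that use or release proline in peptides, 4 were higher and 4 lower at 2 h, 5 higher and 7 lower at 4 h, and 7 higher and 5 lower at 8 h. Among them the prolyl 4-hydroxylase genes P4H9 (evm.TU.Ft7.5018) and P4H10 (evm.TU.Ft8.1176) differed in direction. P4H9 averaged 48.8, 61.3, 92.8 and 79.6 CPM, and this P4H10 gene 47.3, 38.2, 27.0 and 29.3 CPM. Further P4H10 genes, named after their values were seen, differed from it. Evm.TU.Ft2.4935 averaged 0.465, 1.22, 3.75 and 1.28 CPM and was higher at each PEG time. Evm.TU.Ft1.1144 was called higher at 8 h only, and evm.TU.Ft2.2563 lower at 4 h only.

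Factors of the bZIP family, among them bZIP53, are known in Arabidopsis to act on the promoter of proline dehydrogenase. Of 8 tested genes described as such factors, 3 were higher and 1 lower at 2 h, 3 higher and 2 lower at 4 h, and 3 higher and 4 lower at 8 h. BZIP53 (evm.TU.Ft8.3349) averaged 38.8 ± 2.03, 90.4 ± 1.87, 115 ± 1.32 and 81.8 ± 5.87 CPM (SD, n = 3 each) and was higher at each PEG time, with log2 changes of 1.22, 1.57 and 1.08. Further BZIP53 genes, named after their values were seen, did not all follow that course. Evm.TU.Ft4.4014 averaged 71.0, 82.9, 122 and 66.3 CPM. It was higher at 2 and 4 h and lower at 8 h (log2 -0.1, edgeR adjusted p = 0.0435). Evm.TU.Ft2.3684 was called lower at 4 and 8 h only, and evm.TU.Ft2.4223 higher at 8 h only. Evm.TU.Ft4.5817 was higher at each PEG time, and evm.TU.Ft2.4822 was called at none. BZIP44 (evm.TU.Ft8.4622) averaged 49.7, 49.6, 47.8 and 15.9 CPM and was lower at 8 h (log2 -1.64). The other BZIP44 gene (evm.TU.Ft3.5389), named after its values were seen, averaged 7.99, 3.34, 2.96 and 2.62 CPM and was lower at each PEG time. Whether any of these factors acts on POX1 was not tested.

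The deposited pathway arginine and proline metabolism, which contains both members, held 62 tested genes. Of these, 20 were higher and 19 lower at 2 h, 29 higher and 20 lower at 4 h, and 29 higher and 21 lower at 8 h, with median log2 changes of 0.01, 0.25 and 0.10.

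The genes most like each member were taken, among 10581 described genes with a mean of at least 10 CPM, by the mean absolute difference of log2 CPM over the 12 libraries, each gene centred on its own mean. For POX1 these were a cytochrome P450 described as CYP72A219 (evm.TU.Ft8.2564, mean difference 0.0788), IPI1, isopentenyl-diphosphate isomerase (evm.TU.Ft6.1143, 0.0801), and UGT29, a UDP-glucosyltransferase (evm.TU.Ft7.4296, 0.0904). All 3 were called higher at 2 and 4 h and lower at 8 h. IPI1 averaged 121, 288, 445 and 96.3 CPM at 0, 2, 4 and 8 h. For the reductase gene they were PAP, a plastid-lipid-associated protein (evm.TU.Ft7.3688, 0.0858), CBL4, a calcineurin B-like calcium sensor (evm.TU.Ft5.70, 0.0925), and APM1, an aminopeptidase (evm.TU.Ft3.4438, 0.111). Each of these 3 was higher at every PEG time; PAP averaged 66.8, 113, 212 and 249 CPM. A likeness of courses over 4 times is a description and carries no test.

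**Figure D5:**
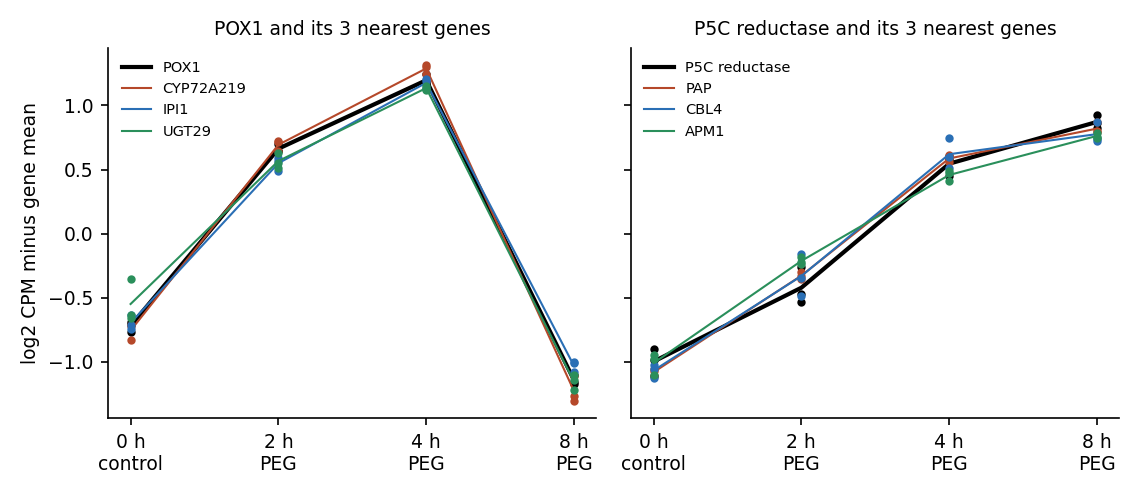
Log2 CPM minus each gene's own mean over the 12 libraries, for POX1 and its 3 most alike genes (left) and for the P5C reductase gene and its 3 most alike genes (right), at 0 h (control) and after 2, 4 and 8 h in PEG; points are libraries and lines join the group means. The mean differences from the member lie between 0.0788 and 0.111.

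Markers of the tissues moved over the same times. The summed level of the 22 leaf genes was 73221 to 79094 CPM at 0 h, 39783 to 42595 CPM at 2 h, 29918 to 30086 CPM at 4 h and 8067 to 8549.7 CPM at 8 h. The summed level of 4 stem xylem genes was 6.83 to 10.6 CPM at 0 h, 8.69 to 11.1 CPM at 2 h, 9.39 to 10.4 CPM at 4 h and 69.8 to 79.4 CPM at 8 h. The summed level of 9 root genes stayed between 1.77 and 4.81 CPM, with 1 to 4 of them at 0 in a group. The part of such shifts in the levels of POX1 and the reductase gene was not tested.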

How the data were processed

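Libraries were grouped by the time and treatment in their titles. The deposited counts are whole numbers of reads per gene. FPKM were deposited by the authors too, and each equals the count over library total and coding length (largest relative difference 1.69e-07). Per the submitters' processing notes fastp, HISAT2, HTSeq and DESeq2 were used; the build, strand setting and versions are not given in the sources used here. No reference genome or sequence was used.

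Counts were scaled by TMM and fitted with edgeR 4.0.16 (limma 3.58.1, R 4.3.3), 1 fit of 12 libraries, after filterByExpr (minimum count 10, minimum total 15), which removed 4687 genes. Adjustment was by Benjamini-Hochberg over all 22063 tested genes within a comparison; SE is the log2 change over the root of F. Alternatives were DESeq2 1.42.0, its size factors, library totals alone, other filters, limma on log2(FPKM + 1) and log2(FPKM + 0.1), a replicate block, only the 6 libraries compared, and leaving out each library. The code was tested on simulated data.

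Members and lists were chosen with earlier results of these data known. Lists were searches of descriptions; a folylpolyglutamate synthase matched by accident was removed on its description. Named genes were the members, the 2 genes of each list with the smallest p (mean of at least 1 CPM), and the 3 described genes most like each member (mean of at least 10 CPM; undescribed genes were left out). Genes added later are named as such. Same-numbered libraries did not deviate together. Python 3.11.15 (pandas 2.3.3, matplotlib 3.10.9) served for tables and plots.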

Additional observations from a re-analysis of the deposited data

Results flagged for a closer look

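The levels of both members differed between the PEG times, by the edgeR test of the difference itself (Benjamini-Hochberg adjusted). These are the comparisons between PEG times given above. Without untreated seedlings at those times they cannot tell PEG from the hour of day. For POX1 the log2 difference was 0.53 at 4 h against 2 h (adjusted p = 2.46e-15), -2.34 at 8 h against 4 h (adjusted p = 2.64e-35) and -1.81 at 8 h against 2 h (adjusted p = 9.33e-32). For the reductase gene evm.TU.Ft8.534 it was 0.97 at 4 h against 2 h (adjusted p = 5.10e-15), 0.33 at 8 h against 4 h (adjusted p = 3.04e-05) and 1.29 at 8 h against 2 h (adjusted p = 1.73e-19). Over all tested genes 53.2%, 65.5% and 63.3% were called in these 3 comparisons.

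Further copies of ALDH5F1, P4H10, BZIP53, BZIP44, GDH1, SAMDC2 and argininosuccinate synthase, and polyamine oxidase genes other than PAO5, were left out here. These were named after their values were seen. Among them, evm.TU.Ft3.3392 (ALDH5F1), evm.TU.Ft4.4014 (BZIP53), evm.TU.Ft4.1118 (SAMDC2) and evm.TU.Ft5.621 (argininosuccinate synthase) had calls against 0 h in opposite directions at different times. Other named genes are given only where the change from 0 h was called in opposite directions at the times compared. This held for the 3 genes most like POX1 and, by that likeness, adds nothing independent of it. At 8 h against 4 h and against 2 h the log2 difference was -2.52 and -1.92 for evm.TU.Ft8.2564 (CYP72A219), -2.21 and -1.58 for IPI1, and -2.30 and -1.73 for UGT29. Groups of 3 libraries were not tested for single libraries that stand apart.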

How the results depend on the processing

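All 252 values of the members (12 differences under 21 alternatives) kept their direction and their side of the threshold. The smallest change of POX1, at 8 h against 0 h, ranged from -0.45 to -0.27, and that of the reductase gene, at 8 h against 4 h, from 0.28 to 0.54. All 272 counts stayed within 1.5 times the reported value. Scaling by library totals alone moved the median log2 change of all genes at 8 h to 0.18, beside 0.03. Of 3276 values of the other named genes, 32 were no longer called, 36 became called and 0 reversed. Further copies of ALDH5F1, P4H10, BZIP53, BZIP44, GDH1, SAMDC2 and argininosuccinate synthase, and polyamine oxidase genes other than PAO5, were not among these. The replicate block is a paired fit. Of 18 same-numbered pairs of libraries 0 correlated above 0.1 (r from -0.0357 to 0.0277), and 4 of 12 libraries matched their own number best. No shared deviation was thus detected, which cannot tell whether same-numbered samples were paired, and the labels do not say. With the block 13893, 15999 and 15606 genes were called at 2, 4 and 8 h, against 13954, 16060 and 15641 without it. With 3 libraries per group and no untreated library after 0 h, the time courses have no control of their own, and all 3 comparisons with 0 h share its libraries.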
